A study of Mus musculus with 8 samples.

Results

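The 13 genes described here are the protein genes of the mouse mitochondrial genome, found as the rows of a gene expression table whose name starts with mt-, which gave 13 of 34745 genes. The table came from RNA sequencing of whole skin from NcstnΔKC mice (4 libraries) and normal mice (4 libraries), all labelled male and 16 weeks old. NcstnΔKC mice carried floxed alleles of Ncstn, the gene of the γ-secretase subunit nicastrin, with a Krt14 CreER transgene (Ncstn flx/flx; Krt14 CreER+/-). They were given tamoxifen by oral gavage from 8 weeks of age, at 20 mg/kg per day on 5 days running and then every 10 days. The protocol gives the normal mice the same floxed alleles and transgene with corn oil in place of tamoxifen, while their genotype label reads wildtype, so which of these they carried is uncertain. The Krt14 promoter drives Cre in basal keratinocytes, and which other cells of the skin carried the deletion is not given in the sources used here. No label says how many mice went into a library, and p-values measure the spread between these libraries.

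Mitochondrial DNA is a small circle that encodes core subunits of the respiratory chain and ATP synthase, together with the ribosomal and transfer RNAs that translate them. It is copied onto long transcripts of both strands, which are cut at the transfer RNAs that punctuate the coding genes, so that the level of each messenger depends on transcription and on the stability of each product. All other proteins of mitochondria, including the RNA polymerase and the stabilising factors for these messengers, come from nuclear genes.

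In the annotation of GENCODE release M21 (mouse build mm10), the mitochondrial chromosome holds 37 genes, of which 13 encode proteins, 2 encode ribosomal RNAs and 22 encode transfer RNAs. The ribosomal and transfer RNA genes were not analysed here. All 13 protein genes had the coordinates of that release. They encode 7 subunits of complex I (NADH dehydrogenase: mt-Nd1, mt-Nd2, mt-Nd3, mt-Nd4l, mt-Nd4, mt-Nd5 and mt-Nd6), the cytochrome b subunit of complex III (mt-Cytb), 3 subunits of complex IV (cytochrome c oxidase: mt-Co1, mt-Co2 and mt-Co3) and 2 subunits of ATP synthase (mt-Atp6 and mt-Atp8). Of these genes, 12 are annotated on the plus strand and come from heavy-strand transcription, and mt-Nd6 alone is annotated on the minus strand and comes from light-strand transcription.

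Some of these genes have near-identical copies in the nuclear genome, and the sequences bear directly on which counts can be read. On chromosome 1, an annotated run of 7 pseudogenes (chr1:24611535-24616197, minus strand, 4663 bases) holds mt-Co2, mt-Atp6, mt-Co3, mt-Nd3, mt-Nd4l and parts of mt-Co1 and mt-Nd4. The sequences below are the first 60 bases, from GENCODE transcripts, of a gene whose copy is identical over all 783 aligned bases, of a gene whose copy differs at 1 base, and of a gene whose copy on chromosome 2 has drifted, with capitals where gene and copy differ. The mt-Co3 stretch lies at chrM:8607-8666 and its copy Gm28437 at chr1:24613912-24613971. The mt-Nd3 stretch lies at chrM:9459-9518 and its copy Gm28438 at chr1:24613060-24613119. The mt-Co1 stretch lies at chrM:5328-5387 and its copy Gm13340 at chr2:22589588-22589647.
mt-Co3: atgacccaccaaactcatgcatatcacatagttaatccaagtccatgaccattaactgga
Gm28437: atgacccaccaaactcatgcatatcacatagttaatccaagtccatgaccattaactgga
mt-Nd3: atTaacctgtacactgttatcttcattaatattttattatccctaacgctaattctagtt
Gm28438: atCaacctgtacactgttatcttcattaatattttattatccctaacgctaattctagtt
mt-Co1: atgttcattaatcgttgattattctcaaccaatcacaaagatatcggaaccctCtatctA
Gm13340: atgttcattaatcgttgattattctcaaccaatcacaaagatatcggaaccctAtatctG

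Counted from the first base of the mitochondrial gene, mt-Nd3 and its copy differ by T3C in 345 aligned bases, and mt-Co1 and Gm29216, its partial copy on chromosome 1, by A1066T in 483. The chromosome 1 copies of mt-Co2 (681 aligned bases), mt-Atp6 (678), mt-Nd4l (294) and mt-Nd4 (876) had no difference. Gm13340 differed from mt-Co1 at 37 of 1545 bases, so it was 97.6% identical. By contrast mt-Nd1 shared no stretch of 31 bases with any other annotated transcript, and mt-Nd6 shared 7.36% of its stretches. Their first 60 bases, at chrM:2751-2810 on the plus strand and chrM:14011-14070 on the minus strand, are shown as the genes least and little affected.
mt-Nd1: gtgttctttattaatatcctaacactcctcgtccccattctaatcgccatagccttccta
mt-Nd6: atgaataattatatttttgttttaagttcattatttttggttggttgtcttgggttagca

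Neighbouring genes also overlap on the compact mitochondrial chromosome, and reads in an overlap can belong to either gene. The longest overlap, 43 bases in capitals in the first sequence (chrM:7907-7989), joins mt-Atp8 and mt-Atp6 on the same strand. The other sequence (chrM:13532-13585) shows the 14 bases, in capitals, where mt-Nd5 and mt-Nd6 meet on opposite strands. The overlap of mt-Nd4l and mt-Nd4 is 7 bases long and that of mt-Atp6 and mt-Co3 is 1 base long.
mt-Atp8 and mt-Atp6: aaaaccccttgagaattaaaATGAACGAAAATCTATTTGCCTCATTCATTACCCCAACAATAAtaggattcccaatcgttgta
mt-Nd5 and mt-Nd6: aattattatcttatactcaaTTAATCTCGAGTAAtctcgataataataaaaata

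The libraries held between 11881506 and 12893174 counts in NcstnΔKC skin and between 5835422 and 8663753 counts in normal skin. Ncstn itself was not lower in these bulk libraries, at 66.8, 50.2, 57.8 and 56.2 CPM (counts scaled to library size) in NcstnΔKC skin and 60.7, 61.9, 61.3 and 58.4 CPM in normal skin, with a log2 fold change of -0.07 ± 0.12 (SE). Xist, which is transcribed from the inactive X of female cells, had 7, 4, 37109 and 36905 counts in NcstnΔKC libraries and 9, 8, 24421 and 22304 counts in normal libraries, so replicates 3 and 4 of both groups go against the label male. Genes of basal keratinocytes were present in every library, at 1.38 to 2.03% of counts in NcstnΔKC skin and 0.792 to 1.34% in normal skin, as the label skin requires.

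Mitochondrial protein genes took 0.932, 0.716, 0.680 and 0.939% of all counts in the NcstnΔKC libraries, against 5.41, 5.19, 5.43 and 3.42% in the normal libraries. The 4 NcstnΔKC shares lay below all normal shares, and the means were 0.817 ± 0.138% in NcstnΔKC skin and 4.86 ± 0.967% in normal skin (SD, n = 4 each). In bulk tissue, fewer cells rich in mitochondria and less mitochondrial RNA per cell cannot be told apart. Total counts per library also split by group. So did loci known to collect ribosomal RNA reads, at 3.09 to 7.44% of counts in NcstnΔKC libraries and 8.57 to 9.77% in normal libraries. The part of such differences between the libraries in the mitochondrial share was not tested. Of the 13 genes, 7 passed the filter on low counts and were tested, and 6 of these were lower in NcstnΔKC skin (edgeR quasi-likelihood test, Benjamini-Hochberg adjusted p under 0.05 over 15684 genes) and 0 were higher. In the same comparison 22.7% of all genes tested were lower and 44.1% changed in either direction. The median log2 fold change was -3.59 over the 7 genes and -0.02 over all genes tested. The groups did not overlap for the same 6 genes, while 20.7% of all genes tested had all NcstnΔKC libraries below all normal ones.

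**Figure D1:**
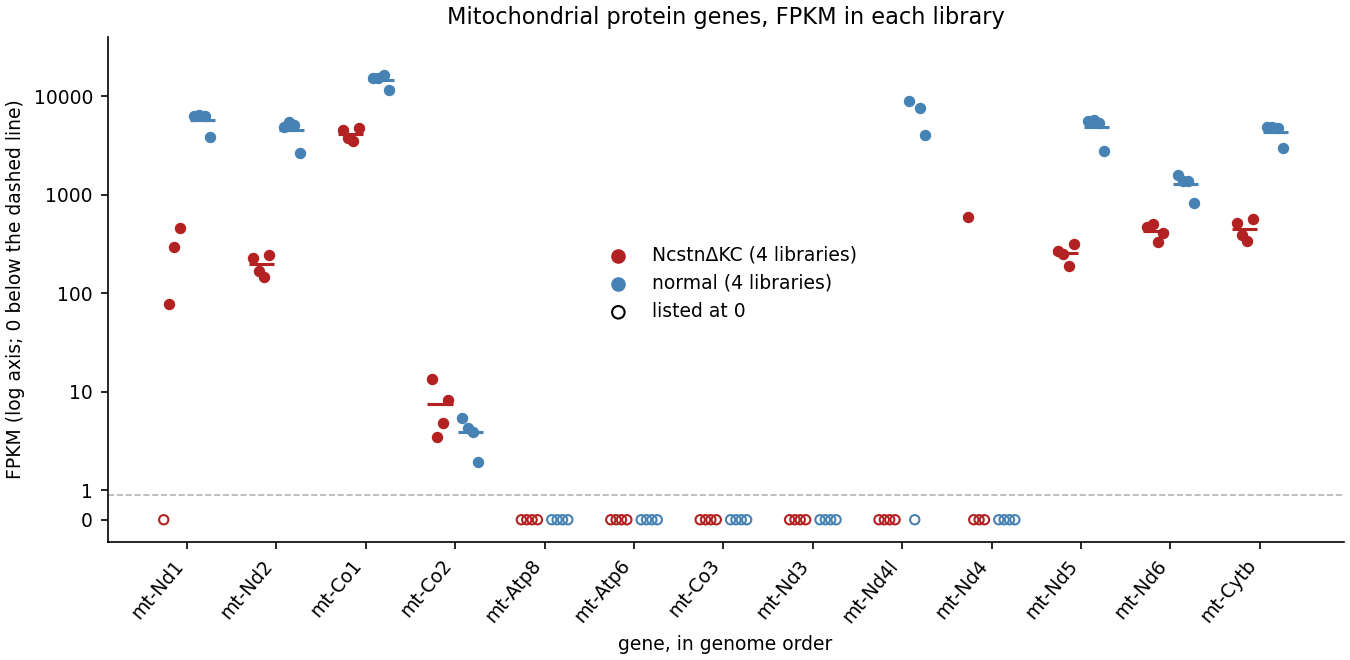
FPKM (counts per length of gene and depth of library) of the 13 mitochondrial protein genes in each library, on a log axis, with NcstnΔKC libraries in red at the left of each gene and normal libraries in blue at the right. Bars are means where no library is at 0, and open circles mark values listed at 0. The 6 lower genes separate the groups, mt-Co2 overlaps, and mt-Atp8, mt-Atp6, mt-Co3 and mt-Nd3 are at 0 in all 8 libraries.

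Among the complex I genes, mt-Nd2 (chrM:3914-4951), a membrane-arm subunit, had 2821, 2211, 1937 and 3253 counts in NcstnΔKC libraries and 33641, 33010, 45575 and 23125 counts in normal libraries. Every NcstnΔKC library lay far below every normal library in counts, although NcstnΔKC libraries were deeper. The level of mt-Nd2 averaged 185 ± 50.2 CPM in NcstnΔKC skin and 5303 ± 1672 CPM in normal skin (SD, n = 4 each), and its log2 fold change was -4.84 ± 0.35 (SE, edgeR adjusted p = 8.37e-05).

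The other large membrane-arm subunit with counts in all libraries, mt-Nd5 (chrM:11742-13565), had 5769, 5669, 4362 and 7348 counts in NcstnΔKC libraries and 69377, 60677, 83701 and 42751 counts in normal libraries. It averaged 417 ± 90.5 CPM in NcstnΔKC skin and 10038 ± 3066 CPM in normal skin (SD, n = 4 each), and its log2 fold change was -4.59 ± 0.34 (edgeR adjusted p = 8.55e-05). The NcstnΔKC values lay close together and far below the normal ones, among which replicate 4 was lowest. Counts of mt-Nd2 per 100 counts of mt-Nd5 were 48.9, 39.0, 44.4 and 44.3 in NcstnΔKC libraries and 48.5, 54.4, 54.4 and 54.1 in normal libraries, so this pair kept a similar ratio and the groups overlapped.

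mt-Nd1 (chrM:2751-3707), the subunit beside the quinone site of complex I, varied widely among NcstnΔKC libraries. It had 0, 943, 3598 and 5696 counts there, against 41027, 36182, 52362 and 31067 counts in normal libraries. NcstnΔKC replicate 1 was listed at 0 beside 2821 counts of mt-Nd2, and per 100 counts of mt-Nd2 the gene had 0, 42.7, 186 and 175 counts in NcstnΔKC libraries and 122, 110, 115 and 134 counts in normal libraries. The spread of this ratio in NcstnΔKC skin ran on both sides of the normal values. The fitted log2 fold change of mt-Nd1 was -5.16 ± 1.46 (edgeR adjusted p = 0.0193). It was -4.75 (adjusted p = 8.02e-04) without NcstnΔKC replicate 1, and the call ended without NcstnΔKC replicate 2 (-4.88, adjusted p = 0.0537) and with no filter on low counts (-5.02, adjusted p = 0.0756).

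mt-Nd6 (chrM:13552-14070), the only gene from light-strand transcription, had 2857, 3281, 2157 and 2728 counts in NcstnΔKC libraries and 5539, 4160, 6149 and 3619 counts in normal libraries. Scaled to library size it averaged 199 ± 41.0 CPM in NcstnΔKC skin and 755 ± 189 CPM in normal skin (SD, n = 4 each), with a log2 fold change of -1.92 ± 0.24 (edgeR adjusted p = 4.79e-04). This was the smallest fall among the 6 lower genes. Whether reads were counted by strand is not given in the sources used here, and without it heavy-strand RNA across this gene and mt-Nd6 itself cannot be told apart.

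mt-Cytb (chrM:14145-15288), the only mitochondrially encoded subunit of complex III, had 6922, 5643, 4954 and 8311 counts in NcstnΔKC libraries and 37887, 32541, 46502 and 28271 counts in normal libraries. The groups did not overlap, and normal replicate 4 was again lowest in its group. It averaged 467 ± 120 CPM in NcstnΔKC skin and 5640 ± 1359 CPM in normal skin (SD, n = 4 each), and its log2 fold change was -3.59 ± 0.29 (edgeR adjusted p = 1.04e-04). Per 100 counts of mt-Nd5 it had 120.0, 99.5, 113.6 and 113.1 counts in NcstnΔKC libraries, against 54.6, 53.6, 55.6 and 66.1 in normal libraries, so mt-Cytb was less reduced than mt-Nd5 in every NcstnΔKC library.

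mt-Co1 (chrM:5328-6872), the catalytic subunit of complex IV, had the most counts in every library among those of the 13 not listed at 0 there. It had 82570, 72483, 69062 and 93635 counts in NcstnΔKC libraries and 160474, 136144, 216933 and 149135 counts in normal libraries. It averaged 5736 ± 1044 CPM in NcstnΔKC skin and 25467 ± 4768 CPM in normal skin (SD, n = 4 each), and its log2 fold change was -2.15 ± 0.26 (edgeR adjusted p = 4.57e-04). The groups did not overlap in CPM.

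mt-Co2 (chrM:7013-7696), the complex IV subunit that takes electrons from cytochrome c, was the exception among the tested genes. Its row held 109, 30, 42 and 72 counts in NcstnΔKC libraries and 25, 17, 23 and 11 counts in normal libraries, far fewer than mt-Co1 in every library. The groups overlapped in CPM, and the log2 fold change of 0.67 ± 0.50 did not pass (edgeR adjusted p = 0.303). Its copy on chromosome 1, Gm28661, with all 681 aligned bases identical, had 415, 0, 238 and 0 counts in NcstnΔKC libraries and 2140, 1763, 2965 and 1559 counts in normal libraries. When the counts of annotated copies were added to their gene, an alternative chosen after seeing the data, mt-Co2 had a log2 fold change of -4.23 (adjusted p = 0.00427). The direction of mt-Co2 thus depends on whether the counts of its copy are taken with it.

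The remaining 6 genes were not tested, because too few libraries had counts. Both ATP synthase genes, mt-Atp6 and mt-Atp8, the complex IV gene mt-Co3 and the complex I gene mt-Nd3 were listed at 0 in all 8 libraries. mt-Nd4l was listed at 0 in the 4 NcstnΔKC libraries and had 17674, 0, 19456 and 10056 counts in normal libraries. mt-Nd4, which shares its messenger with mt-Nd4l, had 9684, 0, 0 and 0 counts in NcstnΔKC libraries and was listed at 0 in the 4 normal libraries. In no library did both genes of this messenger have counts. These zeros stand beside high counts of neighbouring genes, so they may be failed counts and no fold is given.

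Zeros of this kind were rare elsewhere in the table. Among the 364 genes with at least 5000 counts in some NcstnΔKC library, 2 were at 0 in another NcstnΔKC library, and both were mitochondrial (mt-Nd1 and mt-Nd4). Among the 147 such genes of normal libraries, 5 were at 0 in another normal library. They were mt-Nd4l, Gm10925 (the nuclear copy of mt-Atp6), the defensin gene Defb8, and the hair keratin-associated genes Krtap7-1 and Krtap1-5.

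**Figure D2:**
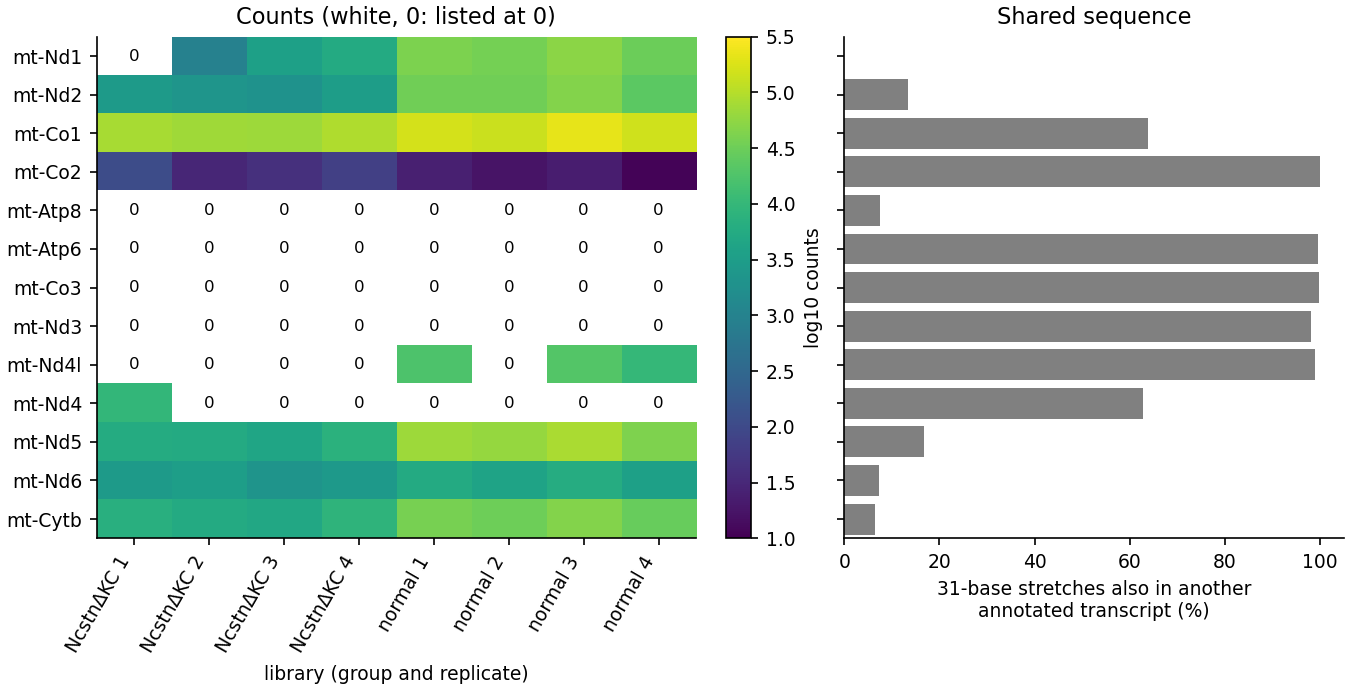
Left, counts of each mitochondrial protein gene (rows, genome order) in each library (columns, NcstnΔKC then normal) as log10 counts by colour, with 0 written in white cells. Right, the share of each gene's 31-base stretches that also occur in another annotated transcript, in percent. Of the 5 genes above 98%, mt-Atp6, mt-Co3 and mt-Nd3 are at 0 in every library and mt-Nd4l in 5. The remaining gene, mt-Co2, is at 0 in none but has at most 109 counts. mt-Atp8 is also at 0 in every library, and its 7.47% covers annotated transcripts only, as unannotated sequence was not searched.

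The share of 31-base stretches that also occur in another annotated transcript was 100% for mt-Co2, 99.9% for mt-Co3, 99.5% for mt-Atp6, 98.9% for mt-Nd4l and 98.1% for mt-Nd3. It was 63.9% for mt-Co1, 62.8% for mt-Nd4, 16.8% for mt-Nd5 and 13.5% for mt-Nd2. It was 7.47% for mt-Atp8, 7.36% for mt-Nd6, 6.55% for mt-Cytb and 0 for mt-Nd1. Of the genes with low shares, mt-Nd2, mt-Nd5, mt-Nd6 and mt-Cytb had counts in every library, mt-Nd1 in 7 of 8 and mt-Atp8 in 0. Only annotated transcripts were searched, so these shares are lower bounds. On the mitochondrial chromosome mt-Atp8 lies between mt-Co2 and mt-Atp6. Their chromosome 1 copies, Gm28661 and Gm10925, border a stretch without an annotated copy (from chr1:24614651 to chr1:24614885). That stretch was not searched, so mt-Atp8 cannot be read as a gene without a nuclear copy. How the authors treated reads that map to several places is not given in the sources used here, and its part in the zeros was not tested.

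The nuclear copies that hold at least 100 counts moved mostly as the mitochondrial genes did. The copies of mt-Co1, Gm29216 on chromosome 1 and Gm13340 on chromosome 2, were lower by log2 fold changes of -2.92 ± 0.21 (edgeR adjusted p = 8.07e-05) and -2.11 ± 0.24 (adjusted p = 3.13e-04). Gm13340 had 631, 465, 412 and 488 counts in NcstnΔKC libraries and 1064, 701, 1450 and 953 counts in normal libraries. Gm28439, the copy of mt-Nd4, was at 0, 424, 312 and 492 counts in NcstnΔKC libraries and 365, 1983, 3945 and 1783 counts in normal libraries, with a log2 fold change of -3.89 ± 1.13 (adjusted p = 0.0214). In NcstnΔKC replicate 1, the library at 0 for this copy, the 9684 counts stood in the row of mt-Nd4 itself.

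Gm10925, identical to mt-Atp6 over 678 bases, had 821, 756, 701 and 970 counts in NcstnΔKC libraries and 5159, 3610, 0 and 2881 counts in normal libraries, and with that zero its change did not pass (adjusted p = 0.0812). The copy of mt-Co2, Gm28661, was lower at -4.68 ± 1.41 (adjusted p = 0.0252) with 2 NcstnΔKC libraries at 0. Gm28437, the copy of mt-Co3, had at most 29 counts in any library other than normal replicate 3, which had 1962. Gm10222, the copy of mt-Nd4l, had 242 counts in NcstnΔKC replicate 1 and 1081 in normal replicate 1, and at most 8 in any other. Counts of the copies thus jumped between libraries of the same group, and because the sequences are identical, reads of gene and copy cannot be told apart.

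**Figure D3:**
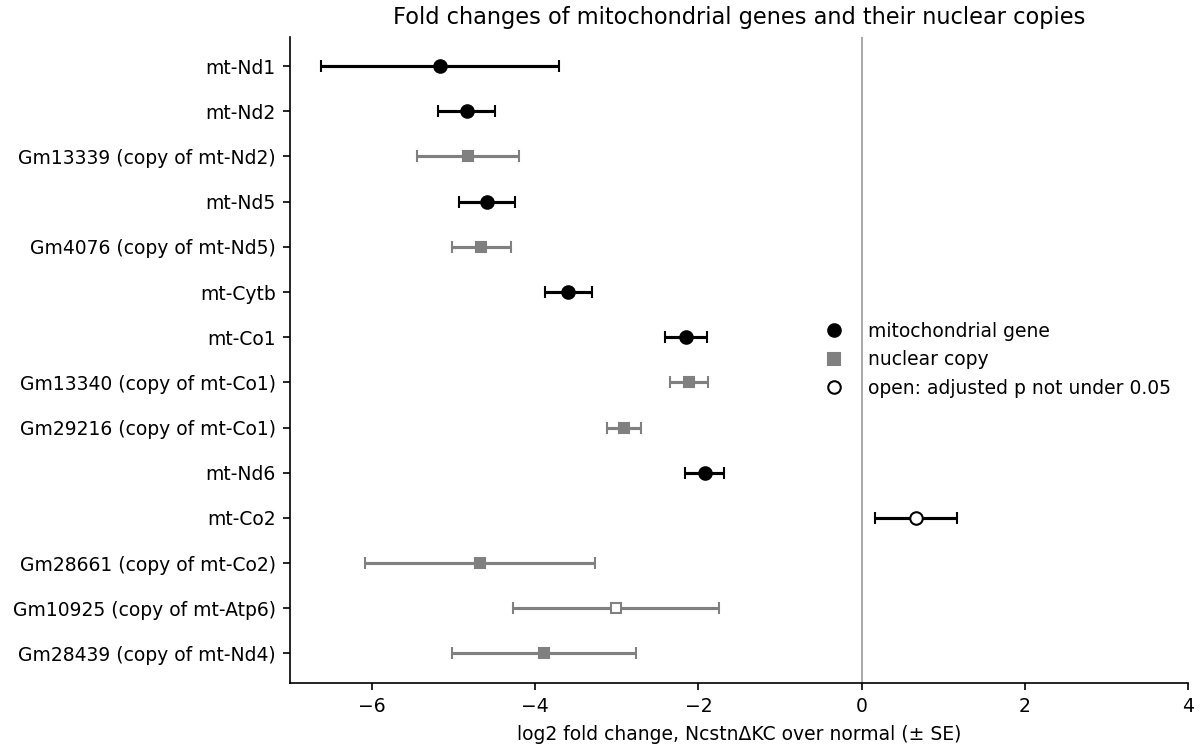
Log2 fold change, NcstnΔKC over normal, with its SE (edgeR), for the 7 tested mitochondrial genes (circles) and their tested nuclear copies (squares); open symbols did not pass the threshold of adjusted p under 0.05. Genes run in order of fold change, from mt-Nd1 at -5.16 to mt-Co2 at 0.67, and the copies of mt-Co1 lie at -2.92 and -2.11 beside mt-Co1 at -2.15.

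The 6 lower genes fell by unequal amounts, which changed the make-up of the mitochondrial messenger pool. mt-Co1 took 74.6, 80.3, 80.2 and 77.4% of mitochondrial counts in NcstnΔKC libraries, against 43.9, 45.0, 46.1 and 51.8% in normal libraries. The complex I genes together took 19.1, 13.4, 14.0 and 15.7% in NcstnΔKC libraries, against 45.7, 44.3, 44.0 and 38.4% in normal libraries. Neither pair of groups overlapped, and the shares hold whatever total the library is scaled to. The genes that the zeros affect are counted in these shares as listed, so the shares describe the deposited rows and not all 13 messengers.

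Per length, in FPKM, mt-Co1 was highest in all 8 libraries among the genes not listed at 0. It stood at 4498, 3724, 3527 and 4701 FPKM in NcstnΔKC libraries and 15379, 15101, 16207 and 11475 FPKM in normal libraries. The level of mt-Nd6 was 463, 502, 328 and 408 FPKM in NcstnΔKC libraries and 1580, 1374, 1368 and 829 FPKM in normal libraries, and that of mt-Nd5 was 266, 247, 189 and 312 FPKM in NcstnΔKC libraries and 5632, 5701, 5297 and 2786 FPKM in normal libraries. mt-Nd6 therefore stood above mt-Nd5 and mt-Nd2 in 4 of 4 NcstnΔKC libraries and in 0 of 4 normal libraries. mt-Cytb stood at 509, 392, 342 and 563 FPKM in NcstnΔKC libraries and 4903, 4875, 4692 and 2938 FPKM in normal libraries. It exceeded mt-Nd5 in 4 of 4 NcstnΔKC libraries and in 1 of 4 normal libraries, and mt-Nd6 exceeded mt-Cytb in 1 of 4 NcstnΔKC libraries and in 0 of 4 normal libraries.

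**Figure D4:**
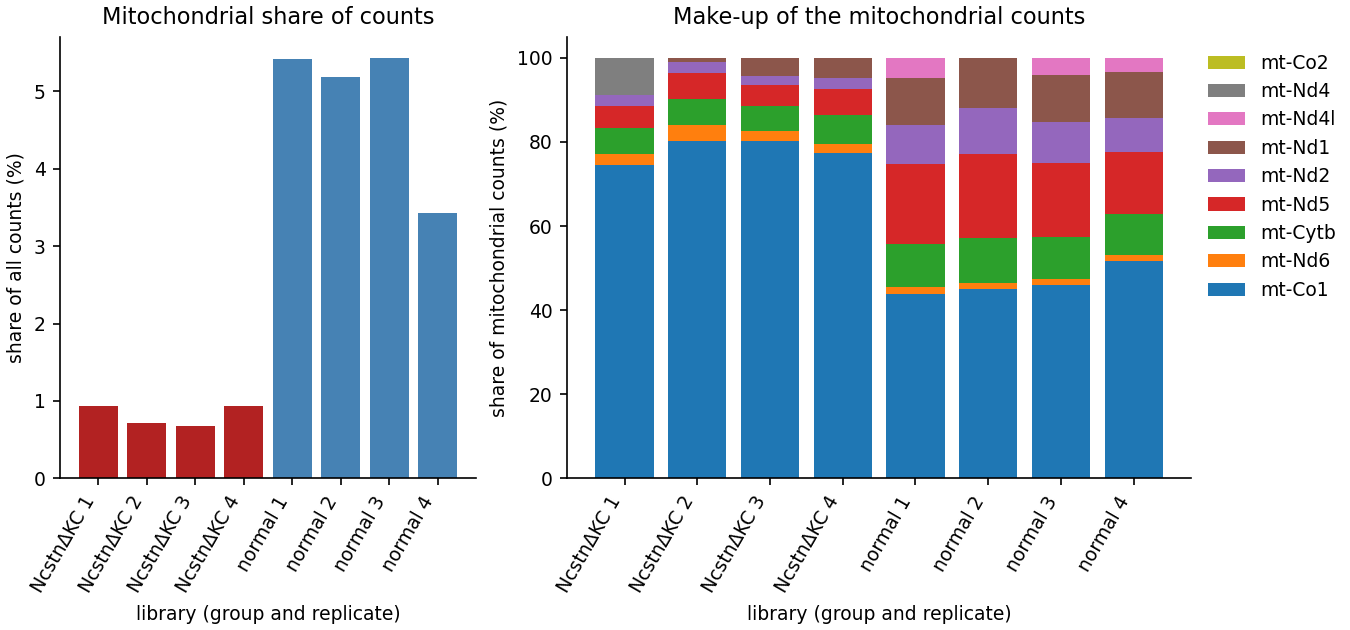
Left, the share of all counts, in percent, that the 13 mitochondrial protein genes take in each library, with NcstnΔKC libraries (red) between 0.680 and 0.939% and normal libraries (blue) between 3.42 and 5.43%. Right, the share of these mitochondrial counts taken by each gene, in percent; mt-Co1 (lowest segment) takes 74.6 to 80.3% in NcstnΔKC libraries and 43.9 to 51.8% in normal libraries.

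To compare the genes within the mitochondrial pool, each library was also scaled by its summed counts of the 12 heavy-strand genes. On this scale the median of all genes tested was 2.88 (log2), with 93.3% of genes higher and 0.561% lower, so only differences among the mitochondrial genes are read from it. mt-Nd2 was lower at -1.91 ± 0.32 (edgeR adjusted p = 1.11e-06) and mt-Nd5 at -1.64 ± 0.33 (adjusted p = 2.64e-05). Heavy-strand genes are part of the total that scales them, so their p-values here are not read as support. mt-Nd6 was higher than the heavy-strand total at 1.03 ± 0.29 (adjusted p = 0.00119), and mt-Co1 did not pass at 0.76 ± 0.37 (adjusted p = 0.05002, just over the threshold). mt-Cytb was lower at -0.68 ± 0.31 (adjusted p = 0.0394), a call that was lost when any 1 of the 4 NcstnΔKC libraries or of normal replicates 1 and 2 was left out (adjusted p from 0.0515 to 0.121). mt-Nd1 did not pass at -2.17 ± 1.54 (adjusted p = 0.215), but passed at -1.75 (edgeR adjusted p = 1.89e-06) without NcstnΔKC replicate 1, the library listed at 0. The sparse row of mt-Co2 was higher at 3.51.

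mt-Co1 is the largest part of that heavy-strand total, and a larger one in NcstnΔKC libraries. Of mitochondrial counts it took 74.6 to 80.3% there and 43.9 to 51.8% in normal libraries. The direction of a gene on this scale therefore depends on mt-Co1. Another scale, mt-Nd2, mt-Nd5 and mt-Cytb summed, was chosen after seeing the data, from genes that fell more than mt-Nd6 and mt-Co1. Genes that fell less come out higher on it by construction, so its p-values are not read as support. On it mt-Nd6 was higher at 2.39 ± 0.39 (edgeR adjusted p = 1.61e-09) and mt-Co1 at 2.11 ± 0.47 (adjusted p = 7.88e-06). The median of all genes was 4.22, with 98.2% higher and 0.147% lower. mt-Cytb turned to 0.68 and did not pass (adjusted p = 0.0911). In counts, mt-Nd6 had 18.4, 24.3, 19.2 and 14.4 per 100 of those genes in NcstnΔKC libraries and 3.93, 3.30, 3.50 and 3.84 in normal libraries. mt-Co1 had 532, 536, 614 and 495 per 100 in NcstnΔKC libraries and 114, 108, 123 and 158 in normal libraries.

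Scaled by mt-Co1 alone, mt-Nd6 did not pass, at 0.25 ± 0.23 (edgeR adjusted p = 0.308), beside a median of all genes of 2.12 with 87.1% higher and 1.12% lower. It had 3.46, 4.53, 3.12 and 2.91 counts per 100 of mt-Co1 in NcstnΔKC libraries and 3.45, 3.06, 2.83 and 2.43 in normal libraries, and the groups overlapped. The light-strand gene and mt-Co1, from the heavy strand, were thus less reduced than mt-Nd2 and mt-Nd5, also from the heavy strand, and no difference between mt-Nd6 and mt-Co1 passed the test.

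For the nuclear genes of mitochondria the scaling of the libraries matters more, because it moves the median log2 fold change of all genes, which is -0.02 here, to 0.29 by total counts and to -0.50 by summed basal keratinocyte genes. The same 3 scalings each left 6 mitochondrial genes lower. Of 20 genes for mitochondrial transcription and DNA maintenance, 3 were higher, 4 were lower and 13 did not pass, with a median log2 fold change of 0.04, and 21.4% of all genes tested were higher and 22.7% lower. Tfam, which packages mitochondrial DNA and starts its transcription, averaged 17.5 ± 1.93 CPM in NcstnΔKC skin and 17.4 ± 2.17 CPM in normal skin (SD, n = 4 each; log2 fold change 0.01 ± 0.16, adjusted p = 0.966). Polrmt, the mitochondrial RNA polymerase, had a log2 fold change of 0.44 ± 0.19 that did not pass (edgeR adjusted p = 0.0873). Polg, the catalytic subunit of the mitochondrial DNA polymerase, was higher by 0.47 ± 0.10 (adjusted p = 0.00720). Tfb1m, a methyltransferase of mitochondrial ribosomal RNA, had a log2 fold change of -1.04 (adjusted p = 0.0332). By total counts 5 of the 20 were higher and 1 lower, and by basal keratinocyte genes 0 were higher and 8 lower. Of the 15684 genes tested, 5323 were higher and 2224 lower by total counts. By basal keratinocyte genes 1000 of them were higher and 5821 lower. Each list below is read beside these totals.

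Of 36 genes for mitochondrial RNA processing and stability, 7 were higher, 3 lower and 26 did not pass, with a median of 0.18. Pde12, an enzyme that removes poly(A) tails from mitochondrial RNA, averaged 112 ± 17.2 CPM in NcstnΔKC skin and 34.2 ± 8.11 CPM in normal skin (SD, n = 4 each; log2 fold change 1.72 ± 0.20, edgeR adjusted p = 3.51e-04). Ptcd2, linked in mice to the processing of the mt-Nd5 and mt-Cytb transcript, was higher by 1.44, and Tbrg4, a FASTK-family protein that acts on mitochondrial messengers, by 1.19. Grsf1, of the mitochondrial RNA granules, had a log2 fold change of -0.64 (adjusted p = 0.00656). Lrpprc, which keeps heavy-strand messengers stable, did not pass at -0.07 ± 0.15 (adjusted p = 0.740), and its partner Slirp did not pass at -0.59 ± 0.24 (adjusted p = 0.0732). By total counts, 18 of the 36 were higher and 2 lower, and by basal keratinocyte genes 2 were higher and 7 lower. The split of this list thus shifted with the scaling, as the split of all genes did. Over all genes tested, the main comparison had 21.4% higher and 22.7% lower.

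Of 22 mitochondrial aminoacyl-tRNA synthetase genes, 5 were higher, 2 lower and 15 did not pass, with a median of 0.19 (8 higher and 1 lower under total-count scaling, 0 and 5 under basal keratinocyte scaling). In the main comparison 21.4% of all genes tested were higher and 22.7% lower. One gene among the 22 stood apart from the rest. Lars2, which charges mitochondrial leucine tRNA, averaged 13.7 ± 1.26 CPM in NcstnΔKC skin and 1479 ± 84.7 CPM in normal skin (SD, n = 4 each; log2 fold change -6.75 ± 0.17, edgeR adjusted p = 1.79e-07). Loci known to collect ribosomal RNA reads differed in mixed directions. Together they took 3.09 to 7.44% of counts in NcstnΔKC libraries and 8.57 to 9.77% in normal libraries. Among these loci Gm42418 was lower at -4.13, Gm15564 lower at -7.49 and Gm26917 higher at 2.15, and Yam1 was at 0 in all NcstnΔKC libraries. Their part in the value of Lars2 was not tested.

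Of 13 regulators of mitochondrial biogenesis, 12 were tested, of which 4 were higher, 5 lower and 3 did not pass, with a median of -0.30 (5 higher and 4 lower under total-count scaling, 0 and 7 under basal keratinocyte scaling). Ppargc1a, a coactivator of mitochondrial biogenesis, averaged 4.88 ± 3.87 CPM in NcstnΔKC skin and 27.3 ± 10.9 CPM in normal skin (SD, n = 4 each; log2 fold change -2.49 ± 0.53, edgeR adjusted p = 0.00546). Esrrg, a nuclear receptor of oxidative tissues, was lower at -2.93, and Pparg, a nuclear receptor of fat cells, at -1.96. Pprc1, another coactivator of the same family as Ppargc1a, was higher by 0.84 (adjusted p = 0.00166). Of 20 porin, import and matrix chaperone genes, 5 were higher, 2 lower and 13 did not pass, with a median of 0.17, and Tomm40, the pore of the outer-membrane import machinery, was higher by 1.31 (adjusted p = 0.00140). By total counts 11 of the 20 were higher and 0 lower, and by basal keratinocyte genes 1 was higher and 5 lower. The main comparison had 21.4% of all genes tested higher and 22.7% lower.

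Nuclear-encoded subunits of complexes I, III and IV and of ATP synthase are the partners of the mitochondrial gene products, and complex II is wholly nuclear-encoded. Of 78 tested over complexes I to V, 32 were lower, 6 higher and 40 did not pass. Over all genes tested, 22.7% were lower and 21.4% higher. The median of the 78 was -0.39, against -3.59 for the 7 tested mitochondrial genes. Of the 78, 11 had a lower fold change than mt-Nd6, the least reduced of the 6 lower mitochondrial genes, and 1 had a lower one than mt-Cytb. That 1 was Cox6a2, the heart and muscle form of a complex IV subunit, which averaged 4.59 ± 3.56 CPM in NcstnΔKC skin and 96.5 ± 47.3 CPM in normal skin (SD, n = 4 each; log2 fold change -4.40 ± 0.69, edgeR adjusted p = 0.00142).

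By complex, 15 of 36 nuclear genes of complex I were lower and 1 higher (median -0.40), among them the accessory subunits Ndufb10 at -2.97 ± 0.25 (edgeR adjusted p = 1.07e-04) and Ndufb3 at -2.72 ± 0.21 (adjusted p = 9.12e-05). For complex III, 3 of 9 were lower and 0 higher (median -0.02), with Uqcrb at -1.62. For complex IV, 5 of 14 were lower and 3 higher (median -0.37), with the muscle form Cox7a1 at -3.50 and the widely expressed Cox8a at 1.27. For ATP synthase, 7 of 15 were lower and 1 higher (median -0.49), with Atp5j2 at -2.44 and Atp5l at 1.68. Complex II, which has no mitochondrially encoded subunit, had 2 of 4 lower and 1 higher (median -0.08). Its flavoprotein Sdha stood at -0.85 and its membrane anchor Sdhd at 0.98. Beside these counts, 22.7% of all genes tested were lower and 21.4% higher. By total counts 11 genes were lower and 2 higher for complex I, 3 and 3 for complex III, 3 and 4 for complex IV, 3 and 3 for ATP synthase and 1 and 2 for complex II. By basal keratinocyte genes 21 were lower and 0 higher for complex I, 3 and 0 for complex III, 8 and 1 for complex IV, 7 and 1 for ATP synthase and 2 and 0 for complex II.

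**Figure D5:**
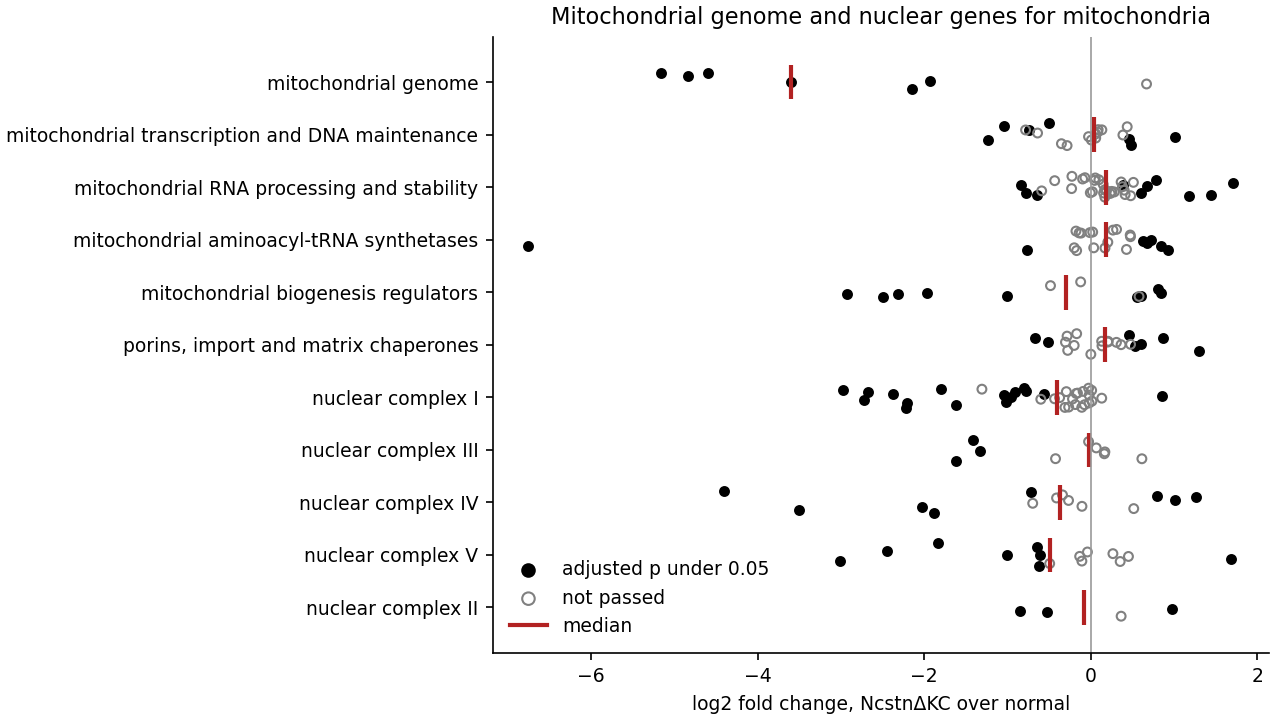
Log2 fold change, NcstnΔKC over normal, of the 7 tested mitochondrial genes (top row) and of nuclear genes for mitochondria by list; filled points passed adjusted p under 0.05 (edgeR), open points did not, and red lines are medians. The mitochondrial median is -3.59, against medians between -0.49 and 0.19 for the nuclear lists; the point at the far left is Lars2 at -6.75.

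Other tissues differed between the groups beside these genes. Skeletal muscle genes summed to 3.29, 0.573, 1.18 and 1.30% of a library in NcstnΔKC skin and 2.36, 10.3, 16.5 and 13.3% in normal skin. Of the 29 muscle genes tested 28 were lower, and no muscle or adipocyte marker was at 0 in all libraries of a group. Over all genes tested, 22.7% were lower and 21.4% higher. Adipocyte genes took 0.0174 to 0.115% in NcstnΔKC libraries and 0.101 to 0.463% in normal libraries, with 8 of 12 lower, and of 6 tested brown adipocyte genes 3 were lower and 1 higher. Normal replicate 1, at 2.36%, had a smaller muscle share than NcstnΔKC replicate 1, at 3.29%. Their mitochondrial shares were 5.41% in normal replicate 1 and 0.932% in NcstnΔKC replicate 1. The other normal libraries, at 10.3 to 16.5% muscle, lay above the other NcstnΔKC libraries, at 0.573 to 1.30%. With muscle and adipocyte genes removed from the table, 6 mitochondrial genes were lower. This removal left the mitochondrial counts of those tissues in place, so it cannot show their part, which was not tested.

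Genes of the other skin and immune cells moved in mixed directions. Of 13 basal keratinocyte genes 10 were higher and 2 lower, and of 8 suprabasal keratinocyte genes 1 was higher and 4 lower. All 9 neutrophil genes tested were higher, at 0.0238 to 0.0762% of counts in NcstnΔKC libraries and 0.00598 to 0.00871% in normal libraries. Of 8 fibroblast genes 1 was lower and 0 higher. Beside these counts, 21.4% of all genes tested were higher and 22.7% lower. The part of these cell types in the mitochondrial values was not tested.

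The libraries with Xist and those without were also compared apart, each with 2 NcstnΔKC and 2 normal libraries. Among the 4 libraries with Xist, the log2 fold changes were -4.14 for mt-Nd1, -4.70 for mt-Nd2, -4.41 for mt-Nd5, -3.47 for mt-Cytb, -2.14 for mt-Co1 and -1.97 for mt-Nd6, and all of these passed (edgeR), as did mt-Nd4l, whose zeros may be failed counts. Over all genes there, 4267 were higher (26.3%) and 4120 lower (25.4%). Among the 4 without Xist, they were -7.71 for mt-Nd1, which includes the library listed at 0, -4.92 for mt-Nd2 and -4.71 for mt-Nd5. They were -3.67 for mt-Cytb, -2.12 for mt-Co1 and -1.85 for mt-Nd6. None passed (edgeR), with adjusted p from 0.0566 to 0.163. Over all genes in that comparison of the same size, 3 were higher (0.0191%) and 1 lower (0.00638%).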

How the data were processed

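Whole-skin RNA of 8 libraries (4 NcstnΔKC, 4 normal) was grouped by the labels. The authors deposited raw whole-number counts and FPKM values per gene; per the submitters' processing notes they used TopHat2 2.0.9, TopHat and HTSeq, with mm10 and hg38 named without a role. Settings for strand and multiply mapped reads are not given in the sources used here. The rows and lists were chosen with earlier results of these data known.

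All 34745 genes were filtered with filterByExpr and scaled by TMM, and groups were compared with edgeR 4.0.16 (R 4.3.3; robust quasi-likelihood test on both sides); p-values were adjusted by Benjamini and Hochberg's method over 15684 genes and read at 0.05. CPM values are counts over the scaled library size. The same test was repeated with each library scaled by its heavy-strand mitochondrial counts. Scripts were tested on simulated data. limma 3.58.1 and DESeq2 1.42.0 gave alternatives, with FPKM on the log2 scale after adding 1 or 0.1. Shared sequence was counted as 31-base stretches of GENCODE M21 transcripts, in place of the planned search of whole chromosomes, for which no genome sequence was at hand. All 13 protein genes were named, with copies of at least 100 counts and genes from the 4 of lowest p in each nuclear list; Tfam, Polrmt, Lrpprc and Slirp were named besides. The 10 pathway lists held 189 entries, all matched (4 by synonym), and the 8 marker lists held 94, of which 93 matched. Library totals ran from 5835422 to 12893174 counts. Replicate numbers were not taken as pairs: no label pairs animals. The planned results on ribosomal and transfer RNA genes were not analysed here.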

Additional observations from a re-analysis of the deposited data

Results flagged for a closer look

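In groups of 4 libraries, 52 sets of values were searched for 1 library far from the other 3 by Dixon's 95% criterion. Chance marks about 1 in 20 such sets, and 8 were marked. Values are given without an explanation.

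mt-Nd4 stood at 813 CPM in NcstnΔKC replicate 1 and was listed at 0 in the other NcstnΔKC libraries. Gm10222, the nuclear copy of mt-Nd4l, stood at 20.3 CPM in the same library, against 0.137 to 0.269 CPM in the other NcstnΔKC libraries. In normal replicate 1 Gm10222 stood at 164 CPM, against 0.403 to 1.04 CPM in the other normal libraries. Gm28437, the nuclear copy of mt-Co3, stood at 277 CPM in normal replicate 3, against 0 to 5.85 CPM in the other normal libraries.

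Normal replicate 4 was marked for several values. Its mitochondrial share of counts was 3.42%, against 5.19 to 5.43% in the other normal libraries, and mt-Nd6 stood at 471 CPM, against 839 to 868 CPM. It had 66.1 counts of mt-Cytb per 100 of mt-Nd5, against 53.6 to 55.6. Its values for the 6 lower genes remained above those of every NcstnΔKC library. In normal replicate 1, mt-Nd2 had 48.5 counts per 100 of mt-Nd5, against 54.1 to 54.4 in the other normal libraries.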

How the results depend on the processing

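The 7 tested mitochondrial genes were refitted under 27 alternatives. For the 6 lower genes this gave 162 values, of which 154 kept the call, 8 no longer passed and 0 changed direction. The losses were the 6 genes among the libraries without Xist, where 0 of them passed, and mt-Nd1 in the 2 settings given above. With 1 library left out at a time, 6 to 7 mitochondrial genes were lower, the count of 7 including mt-Nd4l, whose zeros may be failed counts. Over all genes, leaving out 1 library gave 2733 to 3870 higher and 2722 to 4124 lower, and the libraries without Xist gave 3 higher and 1 lower. By total counts 5323 were higher and 2224 lower, by basal keratinocyte genes 1000 and 5821, by FPKM plus 1 5351 and 2115, and by FPKM plus 0.1 5315 and 2122, against 3360 and 3555 in the main comparison.

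With nuclear copies added, 8 mitochondrial genes were lower and mt-Co2 turned to -4.23. Within the mitochondrial pool 3 genes were lower and 2 higher. Scaled by mt-Nd2, mt-Nd5 and mt-Cytb, 0 were lower (0 to 1 with 1 library left out), mt-Cytb turned to 0.68 (0.66, 0.70, 0.67 and 0.67 without each NcstnΔKC library and 0.67, 0.65, 0.66 and 0.72 without each normal library), and 4 were higher without normal replicate 4. Scaled by mt-Co1 alone 1 was higher. Relative mt-Cytb lost its call without each of 6 single libraries, relative mt-Co1 passed without NcstnΔKC replicate 1 or normal replicate 4 and by limma-voom and DESeq2, and relative mt-Nd1 passed without NcstnΔKC replicate 1 and by limma-voom (-5.23, adjusted p = 0.0156). The normal mitochondrial share was 6.06% with rRNA-linked and muscle genes left out of the total. Apart from the scales and added copies, whose construction sets these values, the cause was not tested.

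Libraries with the same replicate number correlated at -0.03, -0.04, -0.03 and 0.22 in their deviations from the group means, and no label pairs them, so the numbers were not taken as pairs; replicates 1 and 2 of both groups lack Xist, and replicates 3 and 4 have it. With a replicate block 2923 genes were higher and 3058 lower, 6 mitochondrial genes were lower, and relative mt-Cytb did not pass (-0.68, edgeR adjusted p = 0.132). No ribosomal or transfer RNA gene was analysed, so the checks meant for them were not run. The lowest library, at 5835422 counts, limits sparse rows such as mt-Co2.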
